A study of Mus musculus with 21 samples.

Results

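The cell cycle genes examined here were 48 genes of DNA replication and mitosis, taken by symbol from a list and found among the 56953 genes counted in each library. They were chosen for their roles, with earlier results of these data known. RNA was sequenced from peritoneal B cells sorted by flow cytometry from C57BL/6 mice, either WT or TET2-KO. TET2 is an enzyme that oxidizes methylated cytosines in DNA, and the mice carry a deletion of the exons of its catalytic region throughout the body, so the loss is not limited to B cells. B-1a cells are covered by 4 libraries from WT and 4 from TET2-KO mice, B-1b cells by 4 and 3, and B-2 cells by 2 and 4, and the labels name neither a treatment nor an age. B-1a and B-1b cells were both gated by low IgD, CD23 and B220 and were separated by CD5, which marks B-1a cells. The questions were which subset has the higher levels of these genes and whether TET2 loss changes them.

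A dividing cell first loads the MCM helicase onto replication origins with the help of Cdc6, and the E2F transcription factors and cyclin E then carry it from G1 into S phase. Cyclin A, cyclin B and Cdk1 bring it into mitosis, where the Aurora and Polo-like kinases, the centromere proteins and the kinesins build the spindle, and the anaphase-promoting complex with Cdc20 ends it. B-1 cells are known to keep up their numbers in the adult mouse by self-renewal in the body cavities, whereas B-2 cells are replaced from the bone marrow. In RNA from a sorted population, a smaller share of dividing cells and less RNA of these genes per cell cannot be told apart.

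Total counts ranged from 9667187 to 24152518 per library, and 8543 to 24071 of these fell on the 48 genes. Levels are given as CPM, counts per 1000000 counts of a library after TMM scaling. The 8 pan-B-cell markers summed to 11630 to 28900 CPM, so the sorted cells carried the RNA of B cells in all 21 libraries. The 14 macrophage markers summed to 5029 to 35066 CPM, and 13 of them were detected in all libraries. The 7 plasma cell markers summed to 139 to 580 CPM, the 7 germinal center markers to 36.9 to 131 CPM, the 7 erythroid markers to 0.340 to 1704 CPM and the 8 T cell markers to 8.86 to 68.6 CPM. Olfactory and vomeronasal receptor genes, which B cells are not known to use, summed to 12.3 to 23.1 CPM in the 5 libraries labelled WT 1 or WT 2 and to 108 to 1981 CPM in the other 16, with 2 TET2-KO B-2 libraries above 1900 CPM. Whether these differences play a part in the results was not tested beyond the fits named beside them. Counts over the whole Tet2 gene ranged from 8.45 to 30.1 CPM and do not check the genotype, since only some exons are removed.

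Of the 5 libraries labelled WT 1 or WT 2, 3 went against their subset labels. The 6 B-2 markers, among them Fcer2a (CD23) and Ighd, summed to 8013 CPM in the library labelled B-1a WT 1 and to 6716 CPM in the library labelled B-1b WT 2, against 798 to 1376 CPM in TET2-KO B-1a libraries and 3823 to 7337 CPM in TET2-KO B-2 libraries. The library labelled B-2 WT 1 had 1607 CPM of the B-2 markers and 1368 CPM of the 8 B-1 markers, whereas the TET2-KO B-2 libraries had 333 to 506 CPM of the B-1 markers. The library labelled B-1a WT 2 (1770 CPM of B-2 and 1022 CPM of B-1 markers) and the library labelled B-1b WT 1 (1437 and 1340 CPM) carried the markers of B-1 cells. Since the 5 share their numbers and their low receptor level, results that rest on WT libraries are given with all of them and without these 5. Without those, WT B-2 cells are represented by 1 library.

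Most of the 48 genes were rare transcripts in these cells. Averaged over the 21 libraries, 28 genes were below 5 CPM, 7 were between 5 and 20 CPM and 13 were at 20 CPM or above. Genes were compared with each other in CPM per kilobase of exon. The length joins all annotated exons of a gene, so this comparison is rough. On this scale the highest averages were those of Hmgb2, a chromatin protein (49.2), and Pcna, the sliding clamp of the replication fork (36.6). They were followed by the helicase subunit Mcm6 (15.1) and the tubulin-binding protein Stmn1 (14.9). The lowest were Cenpf (0.0830), the cytokinesis protein Anln (0.114) and Mcm10 (0.126). By role, the median gene of origin licensing and helicase stood at 5.53 per kilobase, against 0.867 for the G2/M cyclins and Cdk1 and 0.949 for the mitotic kinases and chromosomal passengers. Mki67, the gene of the proliferation marker Ki-67, averaged 0.337 per kilobase and lay between 1.29 and 6.57 CPM in every library.

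**Figure D1:**
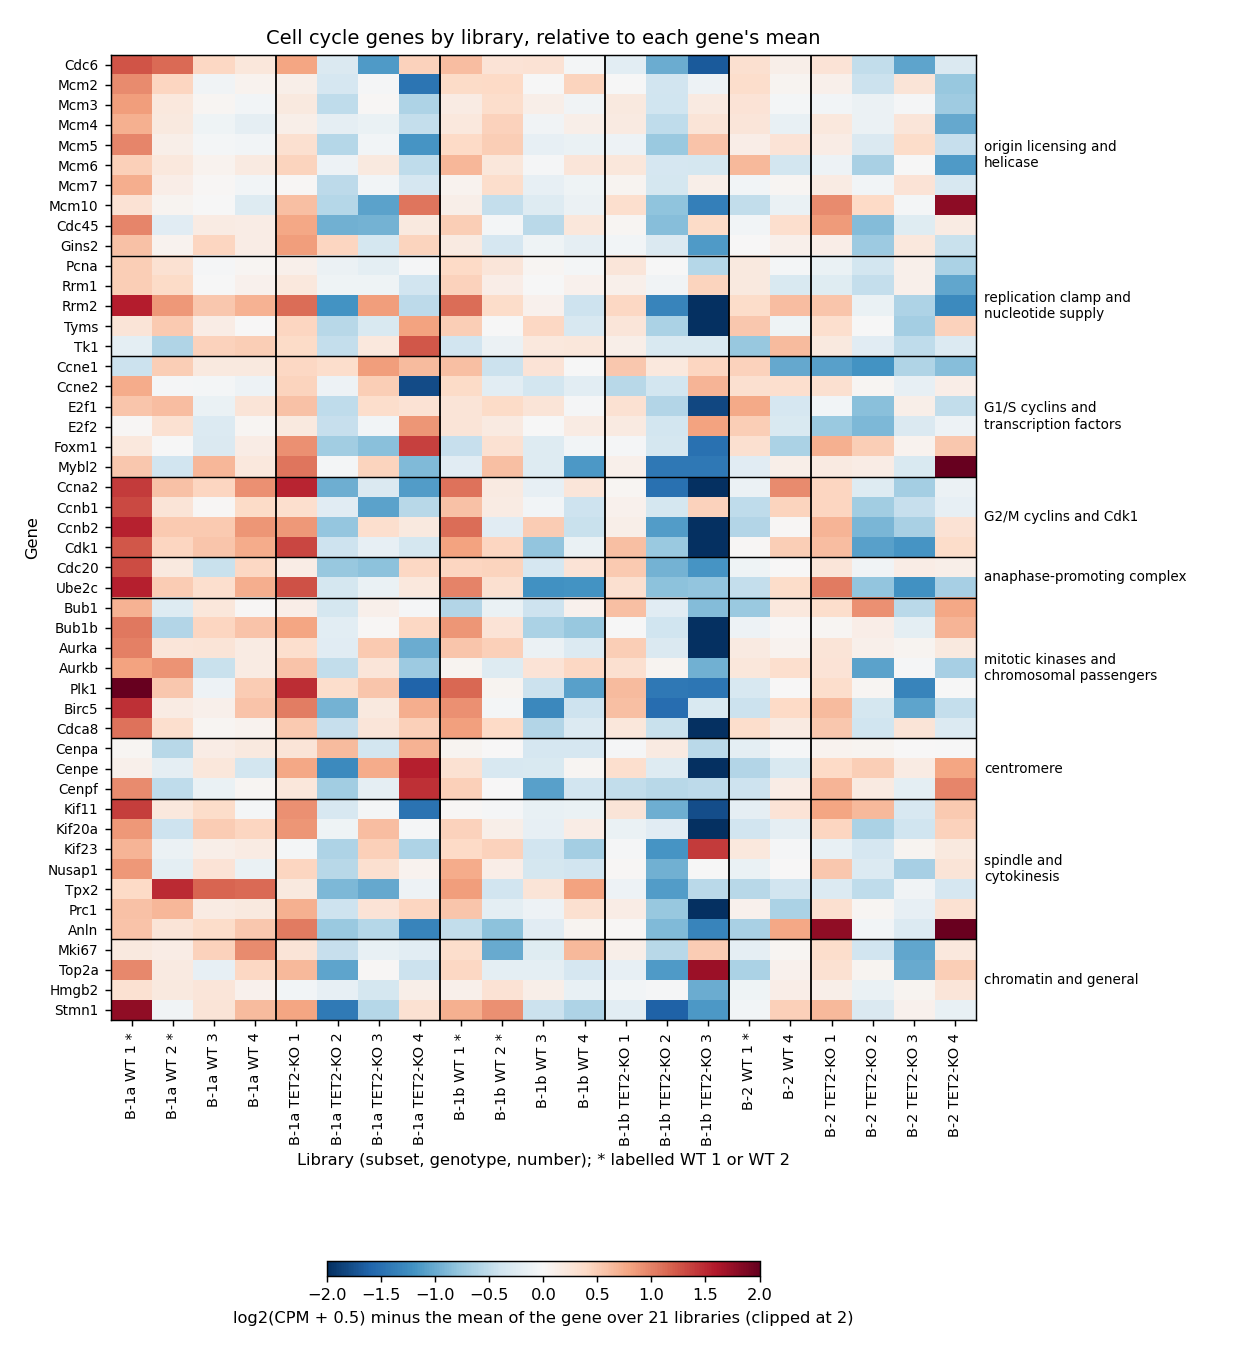
Levels of the 48 cell cycle genes (rows, grouped by role) in the 21 libraries (columns, grouped by subset and genotype), as log2(CPM + 0.5) minus the mean of each gene over all libraries, with colors clipped at 2. Asterisks mark the libraries labelled WT 1 or WT 2. Single libraries stand out as red or blue columns, such as B-1a WT 1, which held the highest level of 24 of the 48 genes, and B-1b TET2-KO 3, which held the lowest level of 20.

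Levels differed widely between libraries of the same group. The summed level of the 48 genes was 800 to 1170 CPM in WT B-1a, 634 to 918 CPM in TET2-KO B-1a, 730 to 964 CPM in WT B-1b, 615 to 811 CPM in TET2-KO B-1b, 746 and 830 CPM in WT B-2, and 601 to 788 CPM in TET2-KO B-2 libraries. All of these ranges overlapped with each other except those of WT B-1a and TET2-KO B-2 libraries. The library labelled B-1a WT 1, with the largest sum, was highest of its group for 36 of the 48 genes. Among TET2-KO libraries, number 1 was the highest of its group for 34 genes in B-1a cells, 35 in B-1b cells and 23 in B-2 cells. The library B-1b TET2-KO 3 had no count at all for 15 of the 48 genes, among them Cdk1, Kif11, Ccna2 and Aurka, while the other 20 libraries had at most 2 genes at 0. It also had the fewest genes with a count of the 21 libraries (17816, in a range up to 35576). Yet its Top2a (20.2 CPM) and Kif23 (10.8 CPM) were the highest of all libraries. Whether its zeros reflect the cells or the library was not tested.

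The spread over libraries was smallest for the abundant replication genes. The SD of log2(CPM + 0.5) over all 21 libraries was 0.27 for Mcm7, 0.28 for Hmgb2 and 0.29 for Pcna. It was largest for Rrm2, a subunit of ribonucleotide reductase (1.18), followed by the S and M phase cyclin Ccna2 (0.99), Plk1 (0.98), Ccnb2 (0.97) and Cdk1 (0.95). By role, the sum over a library varied from 145 to 400 CPM for origin licensing and helicase, a ratio of 2.76. It varied from 5.43 to 35.6 CPM for the G2/M cyclins and Cdk1, a ratio of 6.55, and from 7.81 to 57.7 CPM for the mitotic kinases and chromosomal passengers, a ratio of 7.38.

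RefSeq promoters on GRCm38.p6 could be matched to 39 of the 48 genes (42 promoters, 3 genes having 2). Letters known from cell cycle promoters were searched on both strands of the 250 bases before the start: CCAAT (the NF-Y box), TTTGAA and TTCGAA (cores of the cell cycle homology region, CHR), and TTTCCCGC and TTTGGCGC (E2F). CCAAT was found in 33 of the 42 promoters (78.6%), against 33.8% of all 32851 promoters. TTTGAA was found in 12 (28.6% against 16.0% of all) and TTCGAA in 3 (7.14% against 1.34%). An E2F motif was found in 4 (9.52% against 1.30%), those of Cdc6, Mcm5, Mcm6 and Mcm7. Ccne1 was picked for display as the only member called between B-1 and B-2 cells of TET2-KO mice. That choice followed the tests given below, where its call is set beside the share of all genes. Mcm5, Cdk1 and Cdc20 stand for helicase, mitotic entry and mitotic exit. The stretches of 150 bases before the start of these genes are shown with the motifs in capitals. They are chr7:38107491-38107640 on the minus strand for Ccne1, chr8:75109359-75109508 on the plus strand for Mcm5, chr10:69352913-69353062 on the minus strand for Cdk1 and chr4:118437344-118437493 on the minus strand for Cdc20.
Ccne1: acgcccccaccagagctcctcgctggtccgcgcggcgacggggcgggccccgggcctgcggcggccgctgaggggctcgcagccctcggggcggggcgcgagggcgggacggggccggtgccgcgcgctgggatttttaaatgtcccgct
Mcm5: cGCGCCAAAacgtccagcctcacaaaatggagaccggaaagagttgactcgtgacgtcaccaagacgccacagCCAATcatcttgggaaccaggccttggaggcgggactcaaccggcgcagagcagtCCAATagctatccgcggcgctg
Cdk1: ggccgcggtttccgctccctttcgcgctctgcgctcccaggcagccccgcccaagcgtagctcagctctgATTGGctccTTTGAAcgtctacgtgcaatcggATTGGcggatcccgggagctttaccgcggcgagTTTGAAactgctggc
Cdc20: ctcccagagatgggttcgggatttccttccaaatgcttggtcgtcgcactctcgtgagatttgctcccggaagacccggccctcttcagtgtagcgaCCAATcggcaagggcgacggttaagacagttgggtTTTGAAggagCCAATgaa
The stretch of Cdk1 holds CCAAT (as its complement ATTGG) 2 times and TTTGAA 2 times, that of Cdc20 holds CCAAT 2 times and TTTGAA 1 time, and that of Mcm5 holds CCAAT 2 times and TTTGGCGC (as its complement) 1 time. None of these letters is in the stretch of Ccne1. Only exact matches were searched, so near matches to the E2F letters were not counted.

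Among TET2-KO libraries, B-1 cells had more Ccne1 than B-2 cells, and no other of the 48 genes passed the test. Ccne1 encodes cyclin E1, which with Cdk2 drives entry into S phase, and lies on chromosome 7 from 37797409 to 37806959 (GRCm39, minus strand, ENSMUSG00000002068.17). Its level was 29.0, 27.5, 38.8 and 33.5 CPM in the 4 B-1a libraries, 31.4, 25.1 and 29.3 CPM in the 3 B-1b libraries, and 9.86, 9.08, 14.0 and 11.7 CPM in the 4 B-2 libraries. The lowest B-1 library was thus above the highest B-2 library. The difference from B-2 cells was 1.49 on the log2 scale in B-1a cells (SE 0.20, adjusted p = 0.000233) and 1.31 in B-1b cells (SE 0.21, adjusted p = 0.00256). Over all 18555 genes tested, 5.82% were called for B-1a against B-2 cells (3.26% higher in B-1a) and 2.15% for B-1b against B-2 cells (1.52% higher in B-1b), so 1 of 48 members is not more than the background. At an unadjusted p under 0.05 there were 2 and 3 of the 48 genes, against 24.7% and 19.6% of all genes. Groups that do not overlap were seen for 1 gene in B-1a against B-2 cells (Ccne1, higher; all genes, 8.96% higher and 10.1% lower). In B-1b against B-2 cells they were seen for 3 genes (Ccne1 higher, Cenpf and Foxm1 lower; all genes, 8.04% higher and 11.3% lower). The B-1b difference missed the threshold with the receptor level of each library as a covariate (1.19, adjusted p = 0.0585) and with all 21 libraries in 1 fit (1.35, adjusted p = 0.0788). That receptor level largely follows the subset. It was 108 to 436 CPM in TET2-KO B-1a, 171 to 682 CPM in TET2-KO B-1b and 411 to 1981 CPM in TET2-KO B-2 libraries. A fit with this covariate therefore cannot separate the 2.

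**Figure D2:**
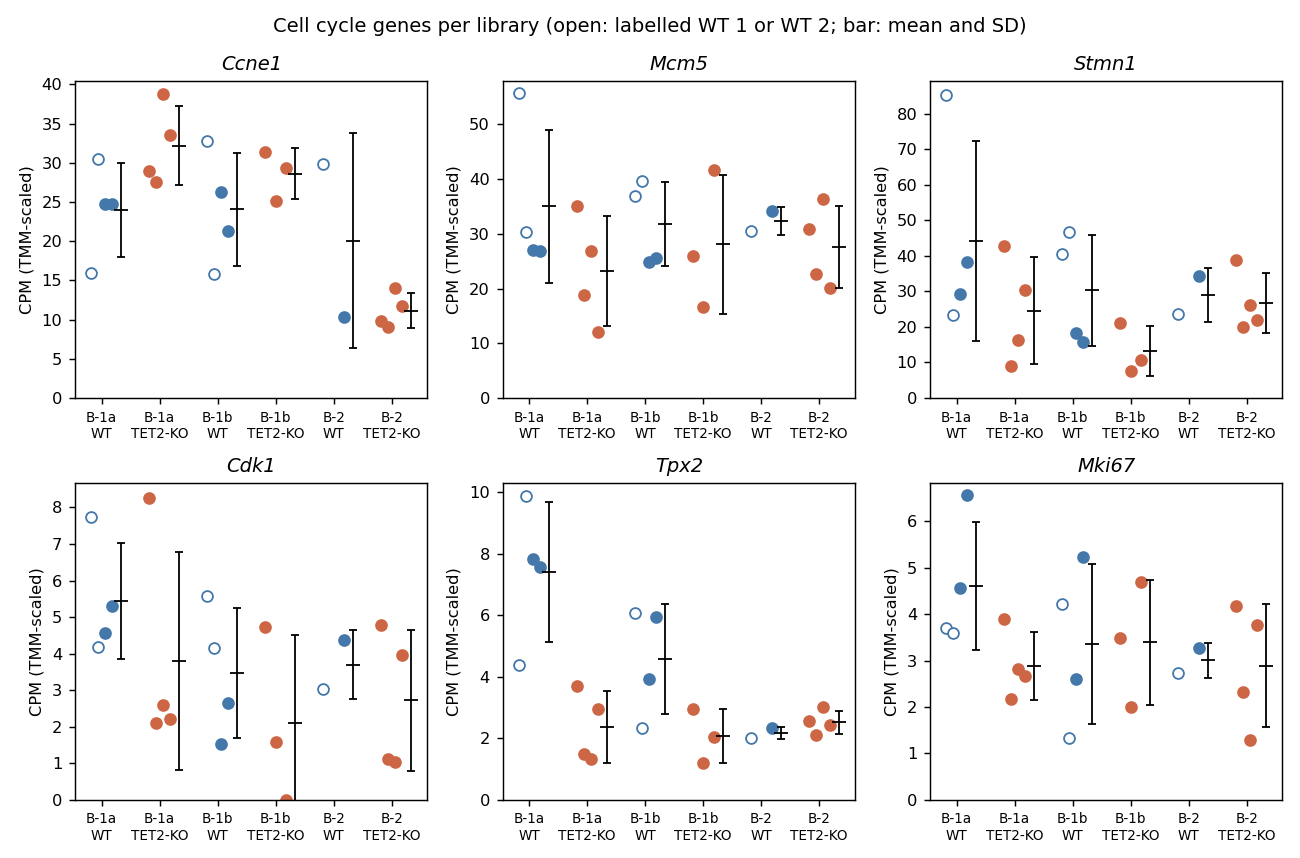
CPM (linear axis) of Ccne1, Mcm5, Stmn1, Cdk1, Tpx2 and Mki67 in each library of the 6 groups, blue for WT and orange for TET2-KO, with open circles for libraries labelled WT 1 or WT 2. Bars give the mean and SD of all libraries of a group, and the lower end is cut off where it falls below 0. Ccne1 lies at 25.1 CPM or above in all TET2-KO B-1 libraries and at 14.0 CPM or below in all TET2-KO B-2 libraries, whereas the groups overlap for Mki67.

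For the other phases of the cycle no difference between B-1 and B-2 cells of TET2-KO mice passed the test. In each comparison 1 fixed gene stood for each role, namely Mcm5, Pcna, E2f1, Cdk1, Cdc20, Aurkb, Cenpa, Kif11 and Mki67. The helicase subunit Mcm5 was at 12.1 to 35.1 CPM in B-1a, 16.6 to 41.7 CPM in B-1b and 20.1 to 36.4 CPM in B-2 libraries. Mki67 was at 2.16 to 3.90, 1.99 to 4.70 and 1.29 to 4.18 CPM, and its groups overlapped. The log2 difference between B-1a and B-2 cells was -0.28 for Mcm5 (95% interval -0.97 to 0.41), 0.15 for Pcna (-0.28 to 0.57) and -0.04 for Mki67 (-1.14 to 1.06). The intervals were wider for the rare mitotic transcripts. They reached from -1.56 to 2.42 for Cdk1, the kinase of mitotic entry, and from -2.85 to 1.53 for the spindle kinesin Kif11. Of the 48 genes, 10 had an interval within 1 log2 unit of 0 and 23 had an interval that passed 1 on both sides, so that for these 23 a difference of 2-fold was not detectable at this depth and spread. The remaining fixed genes gave 0.49 for the transcription factor E2f1, -0.33 for Cdc20, 0.26 for the kinase Aurkb and 0.30 for the centromeric histone Cenpa, all with intervals that include 0.

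Seen over the whole list, 25 of the 48 genes had a higher estimate in B-1a than in B-2 cells, with a median log2 difference of 0.05 (all genes tested, -0.05). For B-1b against B-2 cells it was 12 of 48, with a median of -0.37 (all genes, -0.10). In that comparison the fixed genes gave -0.02 for Mcm5, 0.12 for Pcna, -0.24 for E2f1, -0.43 for Cdk1, -0.53 for Cdc20, 0.15 for Aurkb, -0.18 for Cenpa, -1.59 for Kif11 and 0.18 for Mki67, none past the threshold. B-1b TET2-KO 3, with its 15 genes at 0, is 1 of the 3 B-1b libraries here. Over the fits that leave out 1 library the median ran from -0.82 (without B-1b TET2-KO 1) to -0.19 (without B-1b TET2-KO 2). The sign of the B-1a median depended on the scaling, since it was -0.06 with RLE size factors and -0.02 with TMM computed without immunoglobulin genes, which moved the median of all genes to -0.15 and -0.12. With the receptor covariate it was -0.18 with 16 of 48 genes higher, and the B-1b median was -0.68. Leaving out 1 library moved the B-1a median between -0.23 (without B-1a TET2-KO 1) and 0.24 (without B-1a TET2-KO 2).

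Of 11 tested genes of the list of G1 cyclins, their kinases and Myc, 2 were higher in B-1a than in B-2 cells of TET2-KO mice and none was lower, against 5.82% of all genes called and 3.26% higher. Ccnd2, cyclin D2, was at 440, 312, 462 and 405 CPM in B-1a and at 164, 91.7, 181 and 96.4 CPM in B-2 libraries, without overlap (1.57 on the log2 scale, SE 0.23, adjusted p = 0.000625). The transcription factor gene Myc was at 320, 303, 310 and 129 CPM in B-1a and 114, 83.4, 131 and 42.0 CPM in B-2 libraries (1.49, SE 0.32, adjusted p = 0.0106), with the library B-1a TET2-KO 4 inside the B-2 range. Both genes also act outside the cell cycle engine, Myc in growth and metabolism. Ccnd3, cyclin D3, differed by -0.13 (95% interval -0.57 to 0.32).

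Of 21 genes of the list of Cdk inhibitors and quiescence genes, 2 were higher and 1 was lower in TET2-KO B-1a than in TET2-KO B-2 cells. Cdkn2c, an inhibitor of Cdk4 and Cdk6, was at 20.3 to 25.5 CPM in B-1a and 7.66 to 12.6 CPM in B-2 libraries (1.06, SE 0.24, adjusted p = 0.0141). Rb1, the retinoblastoma protein that holds E2F factors back, was at 45.5 to 61.2 CPM against 20.5 to 32.6 CPM (1.08, SE 0.20, adjusted p = 0.00327). E2f5, a repressive E2F factor, was lower in B-1a cells (-0.97, SE 0.24, adjusted p = 0.0242), a call that was lost when any of 5 single libraries was left out (adjusted p up to 0.0925). Cdkn1b, a Cdk inhibitor, gave -0.57 on the log2 scale (adjusted p = 0.186). Of 73 other replication and mitosis genes tested, 1 passed, the licensing factor Cdt1, with 18.8 to 24.2 CPM in B-1a and 35.3 to 50.8 CPM in B-2 libraries (-0.99, SE 0.19, adjusted p = 0.00385).

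With the receptor level of each library as a covariate, Ccne1 kept its call for B-1a against B-2 cells (adjusted p = 0.0259), whereas Ccnd2, Myc, Cdkn2c, Rb1, E2f5 and Cdt1 did not pass (adjusted p from 0.0611 to 0.606). Their log2 differences in that fit were 1.23, 1.36, 0.73, 1.11, -1.18 and -0.99. Since the receptor level largely follows the subset, a call kept or lost in that fit does not tell subset and receptor level apart. Ccnd2 (adjusted p = 0.0987) and Myc (1.52, adjusted p = 0.0559) also missed the threshold with all 21 libraries in 1 fit, and E2f5 (-0.98, adjusted p = 0.0592) without a filter on low counts. Libraries of B-1a and B-2 cells with the same number deviated together, and with the number as a replicate block the calls were 3 higher in the G1 list, 4 higher and 3 lower in the inhibitor list and 1 higher and 1 lower among the other replication and mitosis genes, while 1 of the 48 genes was called, Ccne1 (all genes, 8.83%). The added genes were Cdk4 in the G1 list, Ccng1, Pdcd4, Foxo1 and Rbl1 in the inhibitor list and Racgap1. Under that block the cytokinesis gene Racgap1 passed (1.17, adjusted p = 0.0195), which it did not in the main comparison (1.40, adjusted p = 0.0942).

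**Figure D3:**
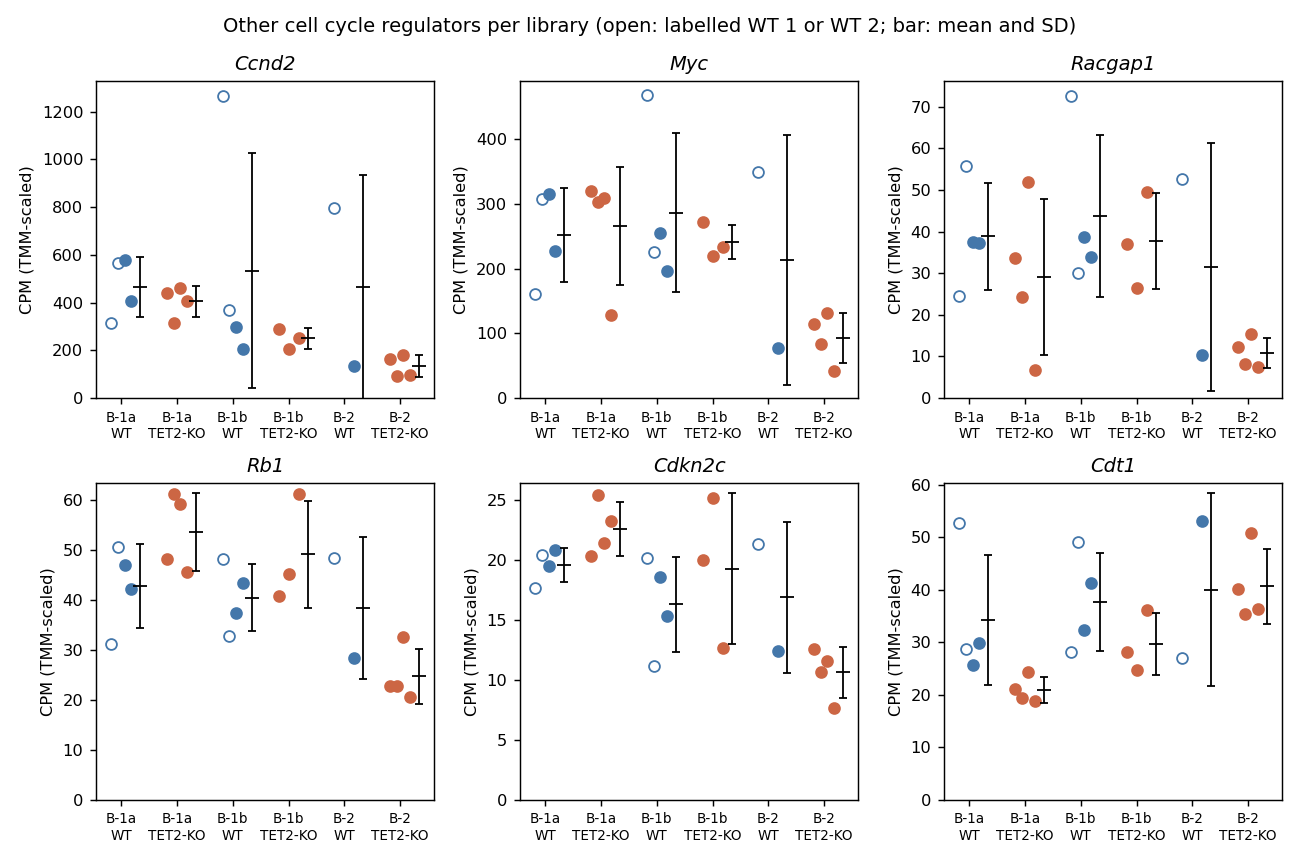
CPM (linear axis) of Ccnd2, Myc, Racgap1, Rb1, Cdkn2c and Cdt1 in each library of the 6 groups, blue for WT and orange for TET2-KO, with open circles for libraries labelled WT 1 or WT 2. Bars give the mean and SD of all libraries of a group, and the lower end is cut off where it falls below 0. TET2-KO B-1a libraries lie above TET2-KO B-2 libraries for Ccnd2, Rb1 and Cdkn2c and below them for Cdt1.

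For B-1b against B-2 cells of TET2-KO mice, 1 gene of the further lists passed. Rb1 was at 40.9, 45.3 and 61.2 CPM in B-1b libraries and gave a log2 difference of 0.95 (SE 0.21, adjusted p = 0.0263), a call that was lost without any of 5 single libraries (adjusted p up to 0.118). Ccnd2 was at 206 to 291 CPM, above all B-2 libraries, but did not pass (0.86, adjusted p = 0.0858). Myc was at 220, 233 and 271 CPM, also above all B-2 libraries (1.35, adjusted p = 0.0507). Ccnd3 gave 0.01 and Cdkn1b -0.44, neither past the threshold. The comparisons of B-1a and of B-1b with B-2 cells use the same 4 B-2 libraries.

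Between B-1a and B-1b cells of TET2-KO mice none of the 48 genes passed in edgeR, and none had an unadjusted p under 0.05, whereas 0.205% of all genes were called and 5.78% had an unadjusted p under 0.05. DESeq2 also called none of the 48. The estimate was higher in B-1a cells for 36 of 48 genes, with a median log2 difference of 0.57 (all genes, 0.04). That median ran from 0.26 (without B-1a TET2-KO 1) to 1.15 (without B-1b TET2-KO 1) over the fits that leave out 1 library. The smallest p belonged to Cenpa, at 44.7, 58.1, 28.8 and 60.9 CPM in B-1a and 36.6, 42.1 and 25.5 CPM in B-1b libraries (0.48, SE 0.25, adjusted p = 0.858). It was followed by Stmn1 (0.90, SE 0.47, adjusted p = 0.858) and the thymidine kinase Tk1 (0.66, SE 0.36, adjusted p = 0.858). Mcm5 gave -0.26, Pcna 0.02, E2f1 0.73, Cdk1 0.86, Cdc20 0.20, Aurkb 0.11, Kif11 0.94 and Mki67 -0.22, none past the threshold. The B-1b group here holds B-1b TET2-KO 3, the library with 15 of these genes at 0. Over genes with at least 10 counts in every library, which leaves 28 of the 48, the median was 0.15. Groups that do not overlap were seen for 1 of the 48 genes, the mitotic kinesin Kif20a, higher in B-1a cells (all genes, 2.98% higher and 3.07% lower). Ccnd2 was higher in every B-1a than in every B-1b library (0.70) but did not pass (adjusted p = 0.742). Myc gave 0.15, Ccnd3 -0.14 and Cdkn1b -0.13. With the replicate block, Pdcd4 was the only gene of the further lists to pass (0.83, adjusted p = 0.0372), and 0 of the 48 did.

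The same subsets were compared in WT mice first with all labels as given. With all 10 WT libraries, 0 of the 48 genes passed in edgeR for B-1a against B-2, B-1b against B-2 or B-1a against B-1b cells, as did 0% of all 16769 genes tested. At an unadjusted p under 0.05 there were 2, 1 and 0 of the 48, against 0.984%, 0.942% and 1.23% of all genes. The smallest p for B-1a against B-2 cells was that of Tpx2, a spindle assembly factor that activates Aurora A. Its level was 4.37, 9.88, 7.82 and 7.58 CPM in the B-1a libraries and 2.02 and 2.32 CPM in the B-2 libraries, a log2 difference of 1.72 (SE 0.46, adjusted p = 1.00). It was followed by Ccnb2, cyclin B2 (1.27, SE 0.54), and the microtubule bundling protein Prc1 (0.74, SE 0.41). For B-1b against B-2 cells the smallest p values were those of Tpx2 (1.03, SE 0.45), Anln (-1.02, SE 0.75) and Ccne2, cyclin E2 (-0.56, SE 0.45), and for B-1a against B-1b cells those of Tpx2 (0.69, SE 0.34), Anln (1.26, SE 0.63) and Kif11 (0.87, SE 0.44). The estimate was higher in B-1a than in B-2 cells for 43 of 48 genes (median 0.32, all genes -0.04) and higher in B-1a than in B-1b cells for 45 of 48 (median 0.30, all genes -0.01), while B-1b and B-2 cells gave 24 of 48 (median -0.01, all genes -0.02, with the sign of the former turning to 0.01 under RLE). Leaving out 1 library moved the first median between 0.11 (without the library labelled B-1a WT 1, 32 of 48 higher) and 0.54 (without B-2 WT 4). It moved the B-1a against B-1b median between 0.10 (again without B-1a WT 1, 33 of 48 higher) and 0.50 (without the library labelled B-1b WT 1), and the B-1b against B-2 median between -0.10 (without B-1b WT 1) and 0.15 (without B-2 WT 4). Groups that do not overlap were seen for 4 genes in B-1a against B-2 cells (Tpx2, Prc1, Mki67 and Ccnb2, all higher; all genes, 2.98% higher and 1.77% lower). There were 2 in B-1b against B-2 cells (Tpx2 and Kif20a, higher; all genes, 2.76% higher and 2.03% lower) and 1 in B-1a against B-1b cells (Anln, higher; all genes, 0.62% higher and 0.525% lower). The 3 comparisons share their libraries, and the library labelled B-1a WT 1, with the largest sum of cell cycle counts and the B-2 markers of a B-2 library, stands in the B-1a group. Mki67 differed by 0.56 between B-1a and B-2 cells (95% interval -0.56 to 1.68), Mcm5 by 0.06 and Cdk1 by 0.50, by 0.45, 0.14 and 0.65 between B-1a and B-1b cells, and by 0.11, -0.08 and -0.15 between B-1b and B-2 cells. The other fixed genes gave, for B-1a against B-2 cells, 0.09 (Pcna), 0.00 (E2f1), 0.54 (Cdc20), 0.13 (Aurkb), 0.05 (Cenpa) and 0.62 (Kif11). For B-1b against B-2 cells the same genes gave 0.05, -0.12, 0.25, -0.18, -0.08 and -0.25. For B-1a against B-1b cells Pcna gave 0.04, E2f1 0.12, Cdc20 0.29, Aurkb 0.32 and Cenpa 0.13. Ccnd2 gave -0.02, Myc 0.22, Ccnd3 -0.22 and Cdkn1b -0.35 for B-1a against B-2 cells, and 0.17, 0.40, -0.06 and -0.29 for B-1b against B-2 cells. For B-1a against B-1b cells they gave -0.19, -0.18, -0.16 and -0.06.

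Once the 5 libraries labelled WT 1 or WT 2 were left out, Ccne1 differed between B-1 and B-2 cells in WT mice as well. The library B-2 WT 4 had 10.4 CPM, the libraries B-1a WT 3 and 4 had 24.8 and 24.7 CPM, and the libraries B-1b WT 3 and 4 had 26.2 and 21.3 CPM. The log2 difference from B-2 was 1.26 in B-1a (SE 0.24, adjusted p = 0.000678) and 1.19 in B-1b cells (SE 0.23, adjusted p = 0.00189). With 1 B-2 library these tests assume that it varies like the others. The libraries that were left out cover most of the span between B-2 and B-1 libraries. Those with the high B-2 marker sums had 15.9 CPM (B-1a WT 1) and 15.8 CPM (B-1b WT 2). The others, with lower B-2 marker sums, had 30.5 CPM (B-1a WT 2), 32.8 CPM (B-1b WT 1) and 29.8 CPM (B-2 WT 1).

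In the same 5 WT libraries a few mitotic genes also passed. Tpx2 was higher in B-1a than in B-2 cells (1.73, SE 0.43, adjusted p = 0.0109), which makes 2 of 48 genes called, against 7.16% of all genes. Ube2c, the ubiquitin-conjugating enzyme of the anaphase-promoting complex, was at 5.08 and 6.78 CPM in B-1a WT 3 and 4, 1.41 and 1.43 CPM in B-1b WT 3 and 4, and 5.18 CPM in B-2 WT 4. Stmn1 was at 29.4 and 38.3, 18.2 and 15.8, and 34.4 CPM in the same libraries. Both were lower in B-1b than in B-2 cells (Ube2c, -1.88, adjusted p = 0.00790, and Stmn1, -1.03, adjusted p = 0.00208), so that 3 of 48 genes were called against 5.53% of all genes. Both were also higher in B-1a than in B-1b cells (2.08, adjusted p = 0.000918, and 1.01, adjusted p = 0.000556), 2 of 48 against 3.22% of all genes. The macrophage markers summed to 30257 and 32398 CPM in B-1a WT 3 and 4, 16361 and 14511 CPM in B-1b WT 3 and 4, and 28926 CPM in B-2 WT 4. They were thus lower in the B-1b libraries, as were Ube2c and Stmn1. Whether macrophage RNA plays a part in these 2 genes was not tested in these 5 libraries. Among TET2-KO libraries the difference between B-1a and B-1b cells in Ube2c did not pass, with 2.97 to 10.1 CPM in B-1a and 1.99 to 5.02 CPM in B-1b libraries. Of the further lists, B-1a against B-2 cells gave 2 higher genes in the G1 list, 2 higher and 3 lower in the inhibitor list, and 1 higher and 2 lower among the other replication and mitosis genes. Ccnd2 (1.87, adjusted p = 0.00128), Myc (1.81, adjusted p = 1.08e-05) and Racgap1 (1.85, adjusted p = 1.18e-06) were higher in B-1a than in B-2 cells, and Cdt1 (-0.93, adjusted p = 0.00224), Foxo1 (-0.89, adjusted p = 0.000442) and Cdkn1b (-0.75, adjusted p = 0.0376) were lower. For B-1b against B-2 cells, 1 gene of the G1 list was higher (Myc, 1.54) and 1 lower (Cdk6, -1.33), 1 gene of the inhibitor list was lower (Foxo1, -0.61), and of the other replication and mitosis genes 2 were higher (Racgap1, 1.78, and the nuclear lamina gene Lmnb1, 1.45) and 2 lower (Cdca3, -1.51, and Dlgap5, -2.05). For B-1a against B-1b cells, 1 of 11 genes of the G1 list was higher (Ccnd2, 0.98), 1 of 21 of the inhibitor list was higher (Pdcd4, 0.83), and of 73 other replication and mitosis genes 4 were higher (Pbk, 2.10, Cdca3, 1.64, Pclaf, 1.10, and Cks1b, 0.88) and 1 lower (Lmnb1, -1.08). Over the list, 31 of 48 estimates were higher in B-1a than in B-2 cells (median 0.08) and 41 of 48 were higher in B-1a than in B-1b cells (median 0.44). The medians of all genes in these fits are not given here, so these counts have no background beside them.

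Between TET2-KO and WT cells, none of the 48 genes passed the threshold in edgeR in any subset. In B-1a cells 0 of the 48 genes passed in edgeR, against 0.0503% of all 13923 genes, and 1 had an unadjusted p under 0.05, against 7.85% of all genes. That gene was Tpx2, at 4.37, 9.88, 7.82 and 7.58 CPM in WT and 3.71, 1.48, 1.32 and 2.96 CPM in TET2-KO libraries, without overlap (-1.61, SE 0.42, adjusted p = 0.310). DESeq2 (-1.63, adjusted p = 0.0123) and edgeR without a filter on low counts (-1.66, adjusted p = 0.00989) called it, whereas with the 5 doubtful WT libraries left out it gave -1.69 (adjusted p = 0.799). It was followed by Ccne1 (0.46, SE 0.21, adjusted p = 0.628) and Ccnb1, cyclin B1 (-0.95, SE 0.44, adjusted p = 0.628). Of the 48 estimates, 11 were higher in TET2-KO cells, with a median of -0.32 (all genes, 0.02). Without the 5 doubtful libraries 18 were higher, with a median of -0.17, and the median of all genes in that fit is not given here. Leaving out 1 library gave medians from -0.49 (without B-1a TET2-KO 1) to -0.12 (without the library labelled B-1a WT 1). Mki67 was at 3.59 to 6.57 CPM in WT and 2.16 to 3.90 CPM in TET2-KO libraries (-0.64, 95% interval -1.38 to 0.11). Groups that do not overlap were seen for Tpx2 alone, lower in TET2-KO cells (all genes, 2.18% higher and 3.38% lower). The other fixed genes gave -0.56 for Mcm5, -0.24 for Pcna, -0.08 for E2f1, -0.49 for Cdk1, -0.67 for Cdc20, -0.44 for Aurkb, 0.41 for Cenpa and -0.75 for Kif11. Ccnd2 gave -0.17, Myc 0.10, Ccnd3 -0.16 and Cdkn1b -0.16.

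In B-1b cells 0 of the 48 genes passed in edgeR, as did 0% of all 14368 genes, and 2 had an unadjusted p under 0.05, against 5.48% of all genes. Stmn1 was at 40.6, 46.6, 18.2 and 15.8 CPM in WT and 21.2, 7.66 and 10.8 CPM in TET2-KO libraries (-1.16, SE 0.46, adjusted p = 0.838). The high values among WT were those of the libraries labelled WT 1 and WT 2, and without these the difference was -0.36. Without a filter on low counts edgeR called Stmn1 (-1.20, adjusted p = 0.00403). Mcm2, a helicase subunit, was at 31.8, 32.4, 24.2 and 33.3 CPM in WT and 24.1, 18.5 and 22.6 CPM in TET2-KO libraries, without overlap (-0.45, SE 0.19, adjusted p = 0.838). Groups that do not overlap were seen for 2 genes, Mcm2 and the licensing factor Cdc6, both lower in TET2-KO cells (all genes, 3.74% higher and 3.94% lower). The third gene by p was Tpx2 (-1.12, SE 0.51, adjusted p = 0.838). Of the 48 estimates 10 were higher in TET2-KO cells (median -0.42, all genes -0.01). Without the 5 doubtful libraries 18 were higher (median -0.20), and the median of all genes in that fit is not given here. Leaving out 1 library gave medians from -0.77 (without B-1b TET2-KO 1) to -0.27 (without the library labelled B-1b WT 1). Mki67 gave 0.05 (95% interval -1.20 to 1.30), Mcm5 -0.13, Pcna -0.22, E2f1 -0.71, Cdk1 -0.71, Cdc20 -0.60, Aurkb -0.24, Cenpa 0.07 and Kif11 -0.82. Ccnd2 gave -1.05, Myc -0.21, Ccnd3 -0.17 and Cdkn1b -0.08.

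In B-2 cells 0 of 48 genes passed, as did 0% of all 19786 genes, and 0 of 48 had an unadjusted p under 0.05 in edgeR, against 8.86% of all genes. DESeq2 called none either. The smallest p was that of Ccne1 (-0.82, SE 0.38, adjusted p = 0.531), and this estimate rested on the library labelled B-2 WT 1, without which it was 0.12. E2f2 (-0.60, SE 0.31, adjusted p = 0.531) and the centromere kinesin Cenpe (1.17, SE 0.62, adjusted p = 0.531) came next. The median over the 48 genes was -0.11 (all genes, 0.18), with 21 higher in TET2-KO cells. Its direction rested on single libraries, since it ran from -0.24 (without B-2 TET2-KO 1, 18 higher) to 0.18 (without B-2 WT 4, 29 higher) and was also above 0 without B-2 TET2-KO 2 or 3 (0.05 each). The fixed genes gave -0.21 for Mcm5, -0.30 for Pcna, -0.58 for E2f1, -0.42 for Cdk1, 0.19 for Cdc20, -0.57 for Aurkb, 0.17 for Cenpa, 0.55 for Kif11 and -0.03 for Mki67. Groups that do not overlap were seen for 3 genes, Mcm10, Cenpe and Cenpa, all higher in TET2-KO cells (all genes, 12.7% higher and 7.26% lower). Ccnd2 (-1.77) and Myc (-1.18) did not pass either (adjusted p = 0.531 for each), and without the library labelled B-2 WT 1 they gave 0.01 and 0.28. Ccnd3 gave -0.26 and Cdkn1b 0.06.

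**Figure D4:**
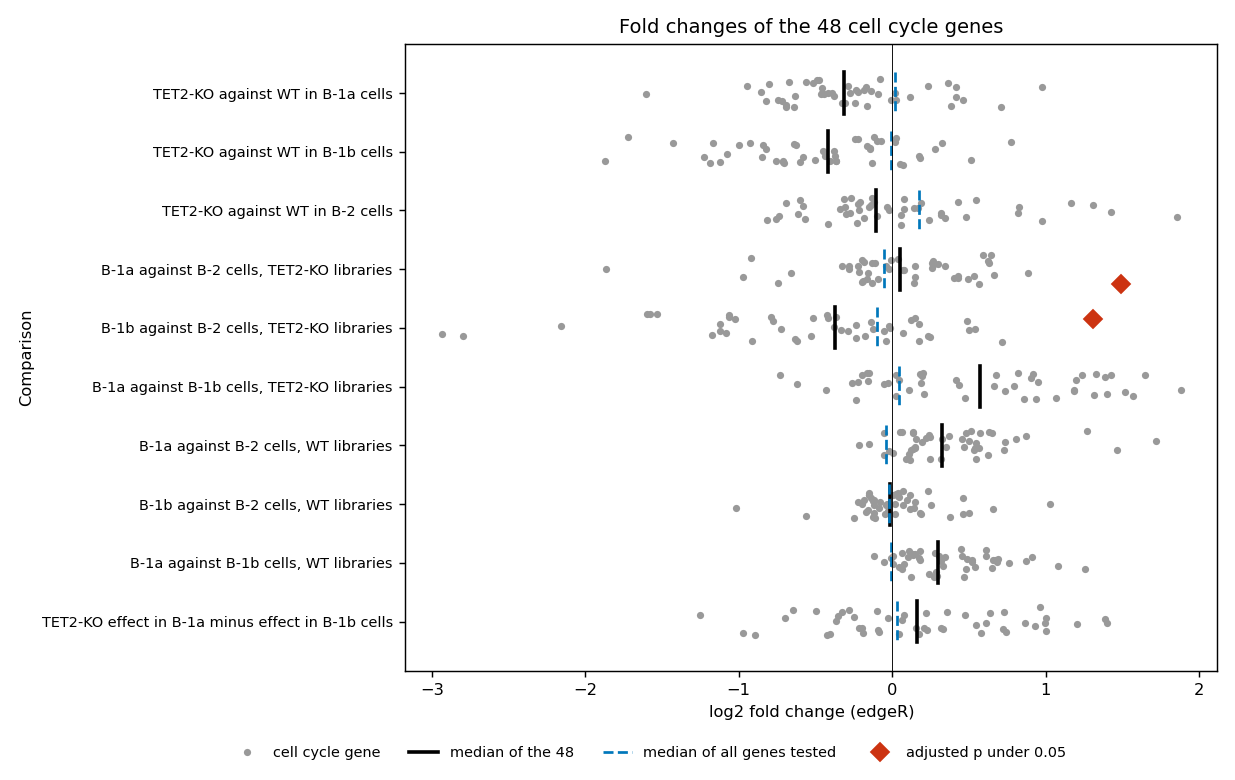
Log2 fold changes of the 48 cell cycle genes (grey points, red diamonds where the adjusted p is under 0.05) in the 10 comparisons (rows), with the median of the 48 as a black line and the median of all genes tested as a dashed blue line. Ccne1 in B-1a and B-1b against B-2 cells of TET2-KO mice is the only gene called, and the black line lies at -0.32 and -0.42 for TET2-KO against WT in B-1a and B-1b cells.

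Whether TET2 loss acts differently in B-1a and B-1b cells was tested as an interaction. Of the 48 genes 0 passed in edgeR, as did 0% of all 15972 genes, and 0 had an unadjusted p under 0.05, against 1.57% of all genes. The smallest p values were those of Ccnb1 (-0.97, SE 0.61, adjusted p = 1.00), the topoisomerase Top2a (-1.25, SE 0.78) and Rrm1, a subunit of ribonucleotide reductase (-0.32, SE 0.25). The estimate for Top2a turned to 0.08 without the library B-1b TET2-KO 3, which had 20.2 CPM of Top2a, against 2.35 and 5.08 CPM in the other 2 libraries of its group. The intervals of 26 of the 48 genes passed 1 log2 unit on both sides of 0, so a difference of 2-fold between the effects was not detectable for them. The fixed genes gave -0.43 for Mcm5, -0.03 for Pcna, 0.61 for E2f1, 0.21 for Cdk1, -0.09 for Cdc20, -0.22 for Aurkb, 0.33 for Cenpa, 0.06 for Kif11 and -0.70 for Mki67. Ccnd2 gave 0.88, Myc 0.31, Ccnd3 0.01 and Cdkn1b -0.09.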

How the data were processed

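Reads passed through fastp (default options) and STAR on GRCm39, and the authors then ran featureCounts 1.6.1 with GENCODE vM32, ignoring strand. Multi-mapping fragments and those over more than 1 gene were not counted, so levels of genes with near-identical copies or pseudogenes (such as Hmgb2, Pcna and Stmn1) are uncertain. The deposited files hold raw whole-number counts, 1 library per file. The study's methods describe amplified full-length cDNA and the labels poly-T selection with random priming. Symbols came from GENCODE vM39 for 56310 of 56953 identifiers.

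Computed here: TMM scaling, the default low-count filter by group, edgeR 4.0.16 robust quasi-likelihood tests over all genes (limma 3.58.1, R 4.3.3) and Benjamini-Hochberg adjustment at 0.05. Each genotype comparison was fitted within its subset, and subsets were compared within a genotype. All 48 genes passed the filter in each fit. Groups came from the labels, and nothing in the labels says that libraries of a group came from separate mice, so p-values measure the spread between these libraries. Same-numbered libraries were checked for shared deviations from their group means over 12470 genes. Among TET2-KO libraries the correlations were 0.17 to 0.55 for B-1a with B-2 (4 pairs) and 0.19 to 0.37 for B-1a with B-1b (3 pairs). The numbers were therefore taken as pairs there, but only in the alternative fit with a replicate block. The main tests did not use these pairs. The method was tested on simulated counts.

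The members, gene lists, marker lists and tests were chosen with earlier results of these data known. Named in every comparison were 1 gene per role (Mcm5, Pcna, E2f1, Cdk1, Cdc20, Aurkb, Cenpa, Kif11, Mki67), every member called or, where none was, the 3 of smallest p, and from the further lists at most 5 called genes in each direction. Ccnd2, Ccnd3, Cdkn1b and Myc were also followed throughout. Racgap1 was named after its values were seen. Alternatives were DESeq2 1.42.0, no filter, at least 10 counts in every library, RLE size factors, TMM without immunoglobulin genes, receptor level as a covariate, all 21 libraries in 1 fit, a replicate block, dropping the 5 libraries with label number 1 or 2 among WT, and dropping each library. Macrophage marker level as a covariate was added after seeing the data.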

Additional observations from a re-analysis of the deposited data

Results flagged for a closer look

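In 44 groups of 4 libraries (the summed level and 10 named genes), 2 held a library whose gap to its nearest neighbor exceeded Dixon's 95% critical value, and chance flags about 1 in 20. Mcm5 was at 55.7 CPM in the library labelled B-1a WT 1, against 26.8 to 30.4 CPM in the other 3 WT B-1a libraries. Cdk1 was at 8.25 CPM in B-1a TET2-KO 1, against 2.10 to 2.59 CPM in the other 3 TET2-KO B-1a libraries. The first of these libraries is among those whose subset markers went against the label.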

How the results depend on the processing

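The number of the 48 genes called was the same as in the main comparisons in 85 of 97 refits with another setting. For B-1b against B-2 cells of TET2-KO mice it was 2 without a filter, 0 with the receptor covariate, 0 with all 21 libraries in 1 fit and 3 with the replicate block (Ccne1, E2f2 and Stmn1). That block also called Ccnd2 (0.85), Myc (1.13), Rb1 (0.87) and Racgap1 (1.41) there. For B-1a against B-2 cells of TET2-KO mice it was 2 with the macrophage covariate. For TET2-KO against WT it was 1 in B-1a cells with DESeq2 and without a filter, and 1 in B-1b cells without a filter. For B-1a against B-2 cells of WT mice it was 1 without a filter. Without the libraries labelled WT 1 and WT 2 it was 2 for B-1a against B-2, 3 for B-1b against B-2 and 2 for B-1a against B-1b cells of WT mice. Apart from those last fits, whose shares of all genes are given above, no share stands beside these counts. They show the dependence on the setting only. Leaving out each library in turn gave 1 to 1 for both TET2-KO comparisons with B-2 cells and 0 to 0 for the other 8 comparisons. Ccne1 in TET2-KO against WT B-2 cells turned from -0.82 to 0.25 with the receptor covariate and to 0.124 without the library labelled WT 1, and ran from -1.37 to 0.124 when each library was left out. In the same way Anln in B-1b against B-2 cells of WT mice ran from -1.78 to 0.718 (without B-2 WT 4), and the interaction of Top2a from -1.69 to 0.0818 (without B-1b TET2-KO 3). The cause was not tested. For B-1b with B-2 TET2-KO libraries the same-number correlations were 0.38 (number 1), 0.17 (number 2) and 0.02 (number 3). In the remaining comparisons the replicate number was not shown to pair libraries (WT pairs correlated from -0.16 to 0.59), and the replicate block left the number called at 0. Both ends of that WT range came from pairs of libraries labelled WT 1. The number of all genes called depended more on the setting. It was 1080 and ran from 284 (receptor covariate) to 3478 (DESeq2) for B-1a against B-2, 399 and from 7 (all 21 libraries in 1 fit) to 2872 (DESeq2) for B-1b against B-2, and 38 and from 6 to 141 for B-1a against B-1b cells of TET2-KO mice. For TET2-KO against WT it was 7 and ran from 0 to 318 in B-1a cells, 0 and up to 131 in B-1b cells, and 0 and up to 169 in B-2 cells. Rare genes limit precision: 3 counts correspond to 0.124 to 0.310 CPM before TMM scaling.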
